A study of Mus musculus with 10 samples.

Results

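The liver-type miRNAs miR-122, miR-192 and miR-194 were examined in small extracellular vesicles, membrane particles released by cells, that had been prepared from mouse heart tissue. Members were taken by name, as every row of the deposited miRNA table that carries one of these 3 numbers, which gave 7 mature miRNAs of the 733 listed. They were both arms of miR-122, both arms of miR-192, and miR-194-5p with the 3p arms of its 2 precursors. Vesicles came from 5 libraries of male C57BL/6J mice on chow (control) and 5 libraries of male C57BL/6J mice fed a high-fat diet (60% fat) and given the nitric oxide synthase blocker L-NAME in their drinking water, 0.5 g/L (HFD plus L-NAME, called the model group here). The latter were 8 weeks old at the start and were kept on the regimen for 12 weeks, a regimen used to induce HFpEF, in which the heart fills poorly while its ejection fraction is preserved. The hearts were minced and digested with collagenase before centrifugation, so the vesicles are those of the whole digested tissue, including any blood left in it. The sources used here do not say whether hearts were perfused or how mice map to libraries. P-values therefore describe the variation among libraries, which may be technical in part.

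MicroRNAs are short RNAs that guide repressor proteins to messenger RNAs through pairing of their seed, bases 2 to 8. miR-122 is made almost exclusively by hepatocytes, where it is the dominant miRNA and controls lipid metabolism genes, and its rise in plasma is a standard sign of liver injury. miR-192 and miR-194 are made from shared primary transcripts in liver but also in gut and kidney epithelium, and they are known as p53-responsive miRNAs. Liver miRNA in a heart preparation is therefore of interest as a possible trace of circulating vesicles, with miR-122 as the narrow marker and miR-192 and miR-194 as the broad ones.

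The precursors of miR-192 and miR-194-2 lie 115 bases apart on the plus strand of chromosome 19 (Mir194-2 at 6264643 to 6264728 and Mir192 at 6264844 to 6264932, GRCm38), outside any other gene in the GENCODE M21 annotation. A second copy, Mir194-1 (chromosome 1, 185313319 to 185313385), lies 195 bases from Mir215 (185313581 to 185313692). Both are within an intron of Iars2 on the opposite strand, and 2010103J01Rik is annotated over them on their own strand. The mature sequences of 5 of the 7 members, and of miR-215-5p as the relative of miR-192-5p, are shown from the RefSeq table for GRCm38.p6 because they decide which precursor a count can be assigned to. The seed is in capitals.
mmu-miR-192-5p: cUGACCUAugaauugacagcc
miR-215-5p: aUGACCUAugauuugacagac
mmu-miR-194-5p: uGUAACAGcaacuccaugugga
miR-192-3p: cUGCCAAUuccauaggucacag
miR-194-1-3p: cCAGUGGAgcugcuguuacuuc
miR-194-2-3p: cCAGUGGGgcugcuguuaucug
The sequences of miR-192-5p and miR-215-5p share the seed UGACCUA and 18 of 21 positions. They differ by C1A, A12U and C20A, counted from the 5′ end with the base of miR-192-5p first. The mature miR-194-5p is identical from both precursors, so its counts cannot be divided between chromosomes 1 and 19. The 3p arms of the 2 precursors differ by A8G, C19U, U20C and C22G, with the base of miR-194-1-3p first. The first of these lies in the seed.

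The libraries held 238434 to 420828 miRNA counts each, and levels are given as counts scaled to a total of 1000000 of these (CPM). Where no read was counted, the limit of 3 counts corresponds to between 7.13 and 12.6 CPM by library. Intervals and this limit cover counting error only. The 7 members together held 1784 counts over the 10 libraries, or 0.0567% of the total. The heart origin was plain from the muscle markers. In single libraries miR-1a-3p had 210666 to 436583 CPM, miR-499-5p of the Myh7b intron 19405 to 40430 CPM, miR-133a-3p 4996 to 14422 CPM and miR-208a-3p of the Myh6 intron 653 to 2049 CPM.

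The precursor Mir122 (chromosome 18, 65248861 to 65248926, plus strand, GRCm38) overlaps an exon of the long non-coding RNA AC157910.3. The liver-specific miR-122 was found at a substantial level in 1 library. The counts of miR-122-5p, the guide arm, were 2, 0, 3, 121 and 2 in control 1 to control 5, and 0, 0, 0, 2 and 0 in model 1 to 5. In control 4 this was 344 CPM (exact 95% Poisson interval 285 to 411), which made it the 82nd most abundant of the 733 miRNAs there. The other 9 libraries pooled stood at 3.22 CPM. The level in control 4 was 107 times that of the other 9 libraries (exact 95% interval 54.3 to 239, counting error only), a comparison of libraries and not of conditions. Of the other libraries with any count, control 3 held 9.79 CPM, control 5 held 8.39 CPM, model 4 held 5.91 CPM and control 1 held 5.01 CPM. These lie at or below the level that a count of 0 still allows.

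The passenger arm, miR-122-3p, showed the same library. It had 8 counts in control 4, or 22.7 CPM (exact 95% Poisson interval 9.81 to 44.8), and 0 counts in each of the other 9 libraries. This was at least 21.1-fold higher in control 4 than in the other 9, with their limit set at 3 counts over all 9 libraries together. A separately listed miRNA with a similar name, miR-122b-5p, which is not a member, did not share the pattern. It had 12 counts in control 4 and 97 in the other 9 libraries, a ratio of 0.981 (exact 95% interval 0.490 to 1.79).

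**Figure D1:**
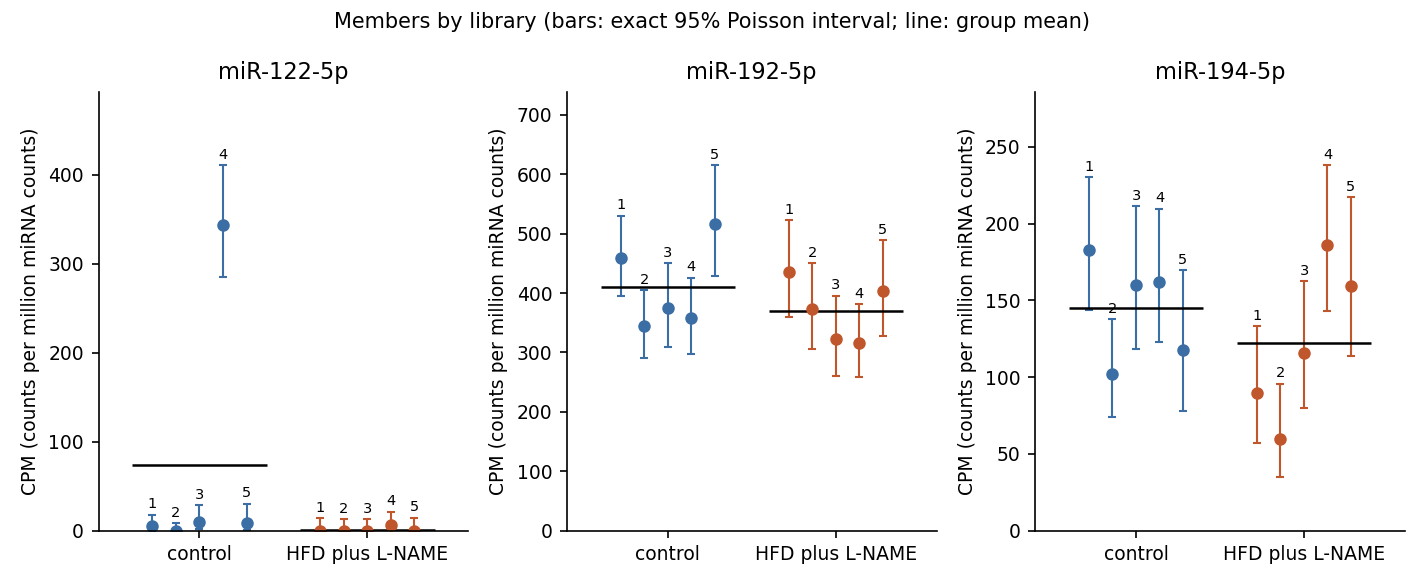
Level of miR-122-5p, miR-192-5p and miR-194-5p in each library, in CPM on linear axes from 0, with library numbers above the points, exact 95% Poisson intervals as bars and group means as lines. Control 4 stands at 344 CPM of miR-122-5p, while the other libraries stay below 10 CPM, and the groups overlap for miR-192-5p and miR-194-5p.

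Such a concentration in 1 library was not seen for another miRNA of comparable count. Of the 228 miRNAs with at least 50 counts over all libraries, a limit chosen after the values were seen, miR-122-5p was the 1 miRNA with more than 50% of its counts in a single library, at 93.1%. The next was miR-199b-3p with 42.6% in control 1, while the similarly named miR-199a-3p had 26.9% in model 3. How reads that match several miRNAs were assigned is not given, so 42.6% may not be the share of a single miRNA. The median over the 228 was 17.6%. For miR-192-5p the leading library held 15.1% of counts and for miR-194-5p 17.1%, both below that median.

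**Figure D2:**
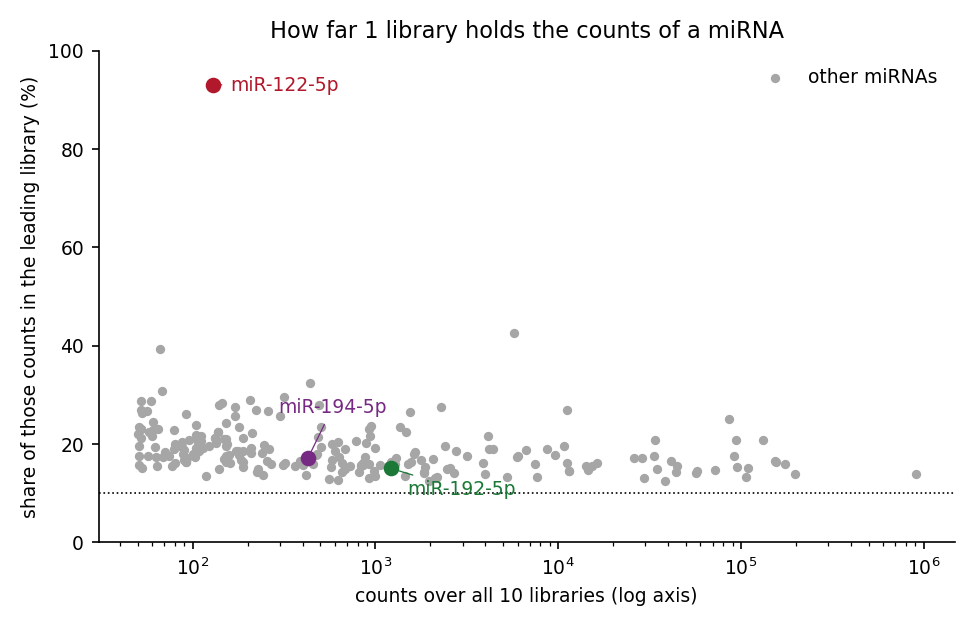
Share of the counts of each of the 228 miRNAs with at least 50 counts that fell in its leading library (percent, linear axis), against the counts over all 10 libraries (log axis). The dotted line marks 10%, an equal split over 10 libraries. miR-122-5p stands alone at 93.1%, and miR-192-5p and miR-194-5p lie among the other miRNAs.

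In control 4 the broader liver miRNAs stood near their level in the other libraries. There miR-192-5p had 126 counts, or 0.917 times the pooled level of the other 9 libraries (exact 95% interval 0.757 to 1.10), and miR-194-5p had 57 counts, or 1.22 times (0.907 to 1.62). In counts, miR-122-5p was 0.960 times miR-192-5p in control 4 and at most 0.0261 times in any other library, the highest being control 3. Both arms of miR-122 made up 41.3% of the member counts in control 4 and at most 1.80% elsewhere.

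Of the blood miRNAs, some were highest in control 4 and others were not. It held the highest level of miR-451a, the red blood cell miRNA, at 54860 CPM, 2.30 times the pooled level of the other 9 libraries (exact 95% interval 2.26 to 2.33). It also held the highest level of miR-150-5p of lymphocytes, at 912 CPM or 2.43 times (2.14 to 2.76). Of the 5 red blood cell miRNAs, 3 were highest in control 4. They were miR-451a and both arms of miR-144, its partner on the same transcript, with 108 CPM of miR-144-3p and 114 CPM of miR-144-5p. There miR-486b-5p had 449 CPM, in a range of 17.7 to 604 CPM over all libraries. For miR-486a-5p it was 14.2 CPM, in a range of 10.6 to 417 CPM. How reads that match several miRNAs were divided between miR-486a-5p and miR-486b-5p is not given, so their separate ranks in control 4 carry little weight. Of the 6 leukocyte miRNAs, 2 were highest in control 4, miR-150-5p and the myeloid miR-223-3p (432 CPM). The most abundant of them, miR-146a-5p, had 3482 CPM there in a range of 2100 to 5353 CPM, and miR-155-5p was lowest in control 4, at 162 CPM in a range up to 480 CPM. Control 2 had 51170 CPM of miR-451a with 0 counts of miR-122-5p, and control 5 had 856 CPM of miR-150-5p with 2. Summed over the 5 red blood cell miRNAs, levels ranged from 16297 to 55545 CPM in control and from 9162 to 28509 CPM in the model group. Summed over the 6 leukocyte miRNAs, they ranged from 4207 to 5024 CPM and from 2942 to 6328 CPM. Control 4 held the highest red blood cell sum of all libraries, whereas its leukocyte sum of 5024 CPM was the highest in control but lay below the highest of the model group. None of the defining members of either list was at 0 in control 4. The source of miR-122 in control 4, whether blood or another, was not tested and cannot be told from these counts.

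**Figure D3:**
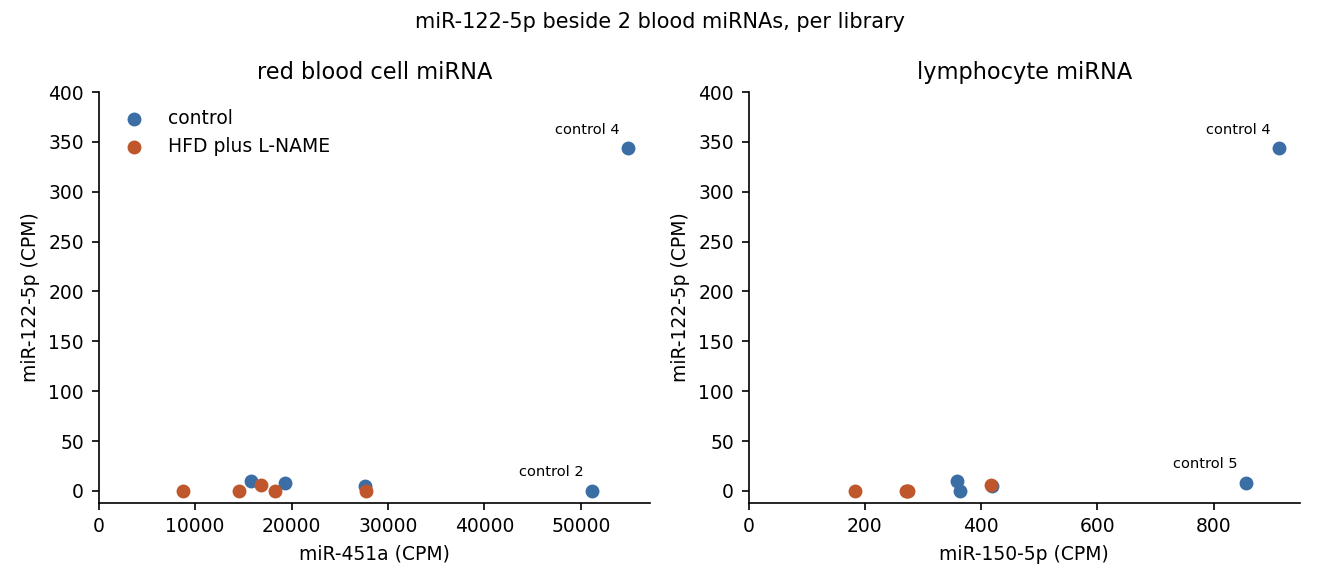
Level of miR-122-5p against miR-451a (left) and miR-150-5p (right) in each of the 10 libraries, in CPM on linear axes, coloured by group. Control 4 is highest on every axis, while control 2 reaches 51170 CPM of miR-451a and control 5 reaches 856 CPM of miR-150-5p at a level of miR-122-5p below 10 CPM.

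Between groups, the mean of miR-122-5p was 73.4 ± 151 CPM in control and 1.18 ± 2.64 CPM in the model group (SD, n = 5 each). The groups overlapped, with model 4 (5.91 CPM) above control 1 (5.01 CPM) and control 2 (0 CPM). The exact two-sided permutation p was 0.0873, or 0.131 after adjustment over 3 exact tests. Without control 4 the difference of -72.2 CPM became -4.62 CPM (exact permutation p = 0.127). Without control 3 or without control 5 the exact permutation p stayed at 0.0873. It was 0.0159 without control 2 and 0.0476 without control 1, both with counts of 0 or 2. Without any 1 model library it was between 0.484 and 0.516. Because control 4 dominates the difference, this p depends mostly on which group is left with 4 libraries. It therefore cannot show how firm a group difference is. At least 1 count was present in 4 of 5 control libraries and in 1 of 5 model libraries, at counts of 2 or 3 outside control 4. Both arms of miR-122 stayed below the expression filter of the test across miRNAs and have no fold change there.

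miR-192-5p, the guide arm of Mir192, was the most abundant member and was steady. Its normalized level (CPM with TMM scaling, a correction of library size for composition) was 427, 350, 410, 348 and 499 in control 1 to 5. In model 1 to 5 it was 399, 430, 303, 325 and 408. The groups overlapped over most of their range, with the highest value in control 5 and the lowest in model 3. Means were 407 ± 62.4 CPM in control and 373 ± 55.7 CPM in the model group (SD, n = 5). The log2 fold change was -0.12 ± 0.19 (SE, edgeR quasi-likelihood test, 95% interval -0.54 to 0.29, adjusted p = 0.821).

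For miR-194-5p, which can come from either precursor copy, the spread was wider. Its normalized level was 170, 104, 175, 157 and 114 CPM in control 1 to 5 and 81.8, 68.9, 109, 191 and 162 CPM in model 1 to 5. Both the lowest value, in library 2, and the highest, in library 4, belonged to the model group. Means were 144 ± 32.9 CPM in control and 122 ± 52.4 CPM in the model group (SD, n = 5), with a log2 fold change of -0.23 ± 0.32 (SE, edgeR, 95% interval -0.91 to 0.45, adjusted p = 0.818). Of the 2 members that passed the filter, 0 passed the adjusted threshold of 0.05, where edgeR called 0% of the 177 miRNAs tested. DESeq2 called 1.69% of them and neither member. Neither had an unadjusted p under 0.05, against 15.8% of those tested. Neither had groups that did not overlap, against 3.95%. By absolute log2 fold change they ranked 136th and 106th of 177, miR-192-5p first, and the median log2 fold change over the 177 was -0.02.

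**Figure D4:**
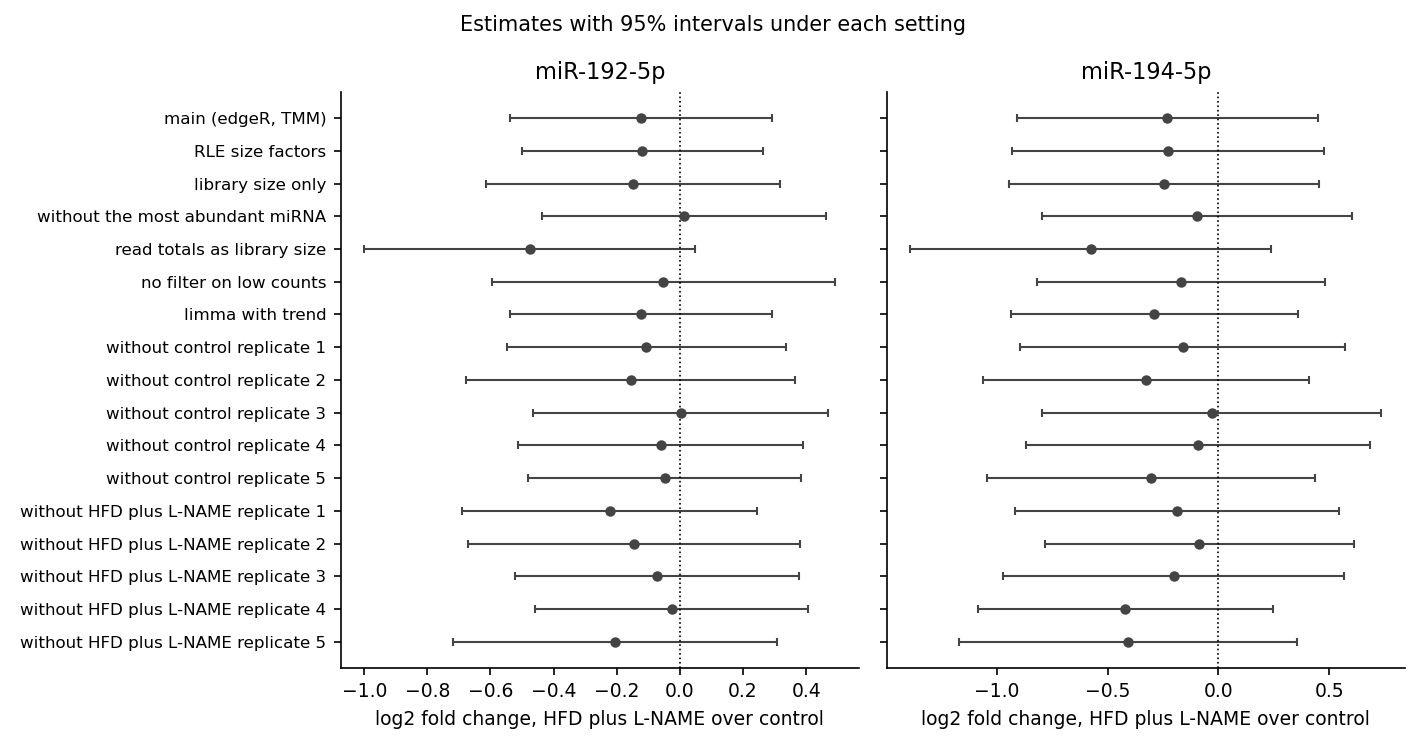
Log2 fold change of miR-192-5p (left) and miR-194-5p (right), HFD plus L-NAME over control, with 95% intervals, under edgeR with TMM and under 16 other settings, 10 of which leave out 1 library each. The intervals span 0 in every setting drawn, and with read totals as library size the estimates are lowest, at -0.48 and -0.58.

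The relative spread between libraries was smaller for miR-192-5p than for miR-194-5p in both groups. The coefficient of variation of the normalized level was 15.3% and 14.9% for miR-192-5p in control and the model group, and 22.9% and 42.8% for miR-194-5p. The medians over all tested were 29.5% and 28.9%.

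The order of levels was miR-192-5p above miR-194-5p in each of the 10 libraries. Per base of mature sequence they had 57.9 and 19.4 counts over all libraries, with lengths of 21 and 22 bases. The lengths are nearly equal, so this scaling adds nothing to the order. The ratio within a library needs no scaling to depth. In control 1 to 5 the counts of miR-194-5p were 0.399, 0.297, 0.426, 0.452 and 0.228 times those of miR-192-5p. In model 1 to 5 they were 0.205, 0.160, 0.359, 0.589 and 0.396 times. The ratio spanned 1.99-fold among control libraries and 3.67-fold among model libraries, where the exact 95% binomial intervals of libraries 2 and 4 did not overlap (8.26% to 21.2% and 29.8% to 44.8% of the sum of both). The mean log2 ratio was -1.52 ± 0.417 in control and -1.70 ± 0.756 in the model group (SD, n = 5). The difference of -0.18 was smaller than the spread between libraries (exact two-sided permutation p = 0.643, adjusted over 3 exact tests 0.643).

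**Figure D5:**
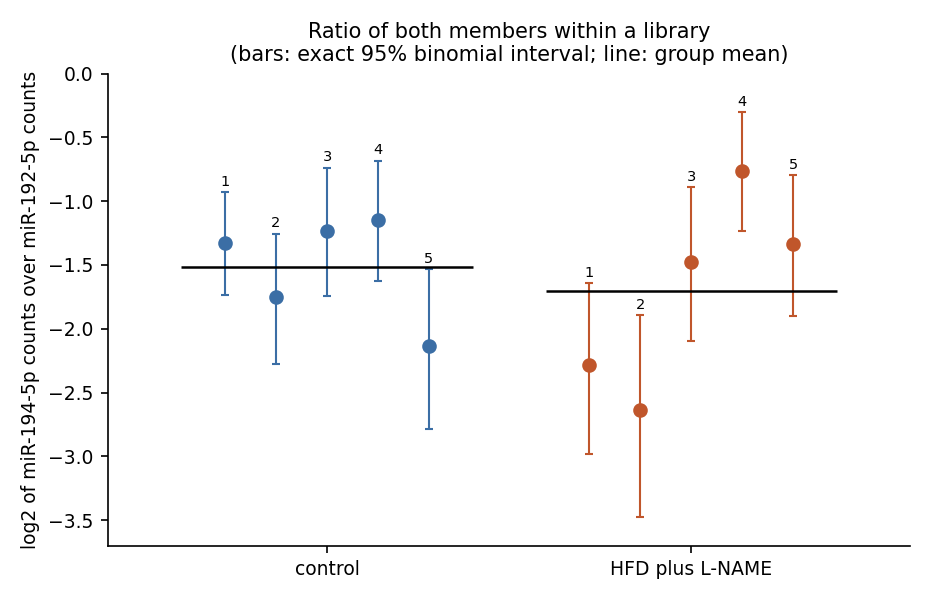
Log2 of miR-194-5p counts over miR-192-5p counts in each library, with library numbers, exact 95% binomial intervals as bars and group means as lines. The groups overlap, and HFD plus L-NAME holds both the lowest value (library 2, -2.64) and the highest (library 4, -0.76).

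Although they share a primary transcript on chromosome 19, no relation between both miRNAs passed the test across libraries by normalized level. For log2 CPM with TMM over 10 libraries, Pearson's r was -0.17 (permutation p = 0.629) and Spearman's rho -0.13 (permutation p = 0.733). The adjusted p over the 5 relations computed was 0.773, and without the 2 libraries farthest from the median of miR-192-5p r was -0.12. Against the blood miRNA miR-451a, r was -0.26 for miR-192-5p (permutation p = 0.473, rho = -0.15 with p = 0.680, r without 2 libraries -0.65) and -0.10 for miR-194-5p (permutation p = 0.770, rho = -0.0061 with p = 1, r without 2 libraries -0.28). Against miR-1a-3p of heart muscle, r was -0.10 for miR-192-5p (permutation p = 0.773, rho = -0.079 with p = 0.838, r without 2 libraries -0.13) and -0.14 for miR-194-5p (permutation p = 0.684, rho = -0.0061 with p = 1, r without 2 libraries 0.25). The adjusted p was 0.773 for each of these by permutation. The 2 libraries left out were those farthest from the median of the member in question. They were model 3 and model 4 for miR-192-5p, and model 1 and model 2 for miR-194-5p. All levels are parts of 1 total per library. Scaled instead to read totals recovered from a second deposited value, r between miR-192-5p and miR-451a was 0.68 (permutation p = 0.0264, adjusted 0.132) and rho 0.82 (permutation p = 0.00580). Without the 2 libraries farthest from the median by this scaling, control 1 and model 3, r was 0.92. On that scale the share of reads that are miRNA enters both values, and it ranged from 0.980% to 1.85% between libraries. Its part in this relation was not tested. The labels name no batch within which the relations could be repeated.

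The miRNAs whose pattern was most like that of miR-192-5p by Pearson's r over the 10 libraries were miR-29c-3p (0.65), let-7c-2-3p (0.65), miR-33-5p (0.64), miR-486b-5p (0.60) and miR-28a-3p (0.58). For miR-194-5p they were miR-338-3p (0.69), miR-15a-5p (0.61), miR-218-5p (0.60), miR-199b-3p (0.57) and miR-429-3p (0.52). These are the highest of 176 values each, whose medians were 0.06 and -0.03, and the points share depth and total. How reads that match several miRNAs were assigned is not given, which limits the values of miR-199b-3p, miR-486b-5p and miR-486a-5p. The lists had no miRNA in common, and miR-192-5p and miR-194-5p were not on each other's list. In mean normalized level, miR-322-5p (416 CPM) and the predicted miRNA miR24-5p (421 CPM) stood just above miR-192-5p, and miR-497a-5p (381 CPM) and miR-15a-5p (378 CPM) just below. The neighbours of miR-194-5p were miR-361-5p (133 CPM) and miR-486a-5p (134 CPM) above, and the predicted miR121-3p (131 CPM) and miR-301a-3p (129 CPM) below. In each case these differ by less than the spread between libraries of one group.

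The remaining arms were at the limit of detection. miR-192-3p had 1 count each in control 1 and control 2 and 0 elsewhere, miR-194-1-3p had 1 count in model 4, and miR-194-2-3p had 1 count in model 3. The 5p arm thus held 99.8% of miR-192 counts, 99.5% of miR-194 counts and 94.2% of miR-122 counts. With 1 count for each 3p arm of miR-194, the share of its precursor copies was not detectable at this depth. miR-215-5p, which shares the seed of miR-192-5p and neighbours Mir194-1, had 3 counts in all, 1 each in model 2, 4 and 5, and 0 in control. Reads of miR-192-5p and miR-215-5p differ at 3 positions, and how the authors counted reads with mismatches is not given in the sources used here.

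Summed over the 7 members, the share of miRNA counts was 0.0634% ± 0.0163 in control and 0.0495% ± 0.00556 in the model group (SD, n = 5). By library the share was 0.0649%, 0.0449%, 0.0545%, 0.0886% and 0.0642% in control 1 to 5 and 0.0525%, 0.0433%, 0.0442%, 0.0511% and 0.0562% in model 1 to 5. Control 4 was the highest and the groups overlapped. The difference of -0.0140 percentage points had an exact two-sided permutation p of 0.0794, or 0.131 after adjustment over 3 exact tests. With both arms of miR-122 left out, an alternative chosen after seeing the data, control 4 stood at 0.0520%, within the range of the other control libraries, and the difference was -0.00629 percentage points (exact permutation p = 0.190). Without control 4 it was -0.00766 percentage points (p = 0.151 by the exact permutation test), and without control 2 it was -0.0186 percentage points (p = 0.0159 by the exact permutation test). The denominator also moved it. With miR-1a-3p left out of the total, the share was 0.0836% ± 0.0186 in control and 0.0758% ± 0.0148 in the model group (difference -0.00780 percentage points, exact permutation p = 0.468). As a share of reads the difference was -0.000366 percentage points (exact permutation p = 0.0397), with miR-122 of control 4 included. Scaled to reads, the median log2 fold change over all miRNAs tested was also lower, at -0.37 against -0.02 in the main fit. A lower value on this scale is therefore not particular to the members. Fewer vesicles of one origin and less of a miRNA per vesicle cannot be told apart in these bulk preparations.

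Most of the epithelial and brain miRNAs listed were at low levels. Of the 7 epithelial miRNAs, 1 passed the filter, miR-429-3p, which had 14.3 to 154 CPM in single libraries, while miR-200a-3p had 2.38 to 26.1 CPM, miR-200c-3p 0 to 37.2 CPM and miR-141-3p 0 to 17.5 CPM. Summed over the list, levels ranged from 33.3 to 144 CPM in control and from 66.8 to 246 CPM in the model group, and control 4 stood at 82.4 CPM. Of the brain miRNAs miR-128-3p, which many tissues also express, had 176 to 516 CPM, whereas miR-9-5p had 9.79 to 42.6 CPM, miR-9-3p 0 to 14.9 CPM and the neuron-specific miR-124-3p 0 to 28.1 CPM. By edgeR 0 of 5 heart muscle, 0 of 5 red blood cell, 0 of 4 leukocyte, 0 of 1 epithelial and 0 of 1 brain miRNAs that passed the filter were called in either direction. Their median log2 fold changes were 0.24, -0.14, -0.08, 0.34 and -0.12, beside -0.02 over the 177 tested. The 4 pancreas miRNAs were not among the 733 miRNAs listed under these names. The same held for miR-215-3p and both arms of miR-802, of the further liver and gut miRNAs.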

How the data were processed

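Per the labels' protocols, adaptors were ligated to small RNA with a commercial MGIEasy kit. The authors deposited 1 table with a raw read count per mature miRNA and library, and a second value per count whose header names no unit. This deposited value was assumed to be RPM, because count divided by value was 1 constant per library, implying 21563705 to 27493796 reads. The submitters' processing notes name the build GRCm38.p6. The sources used here give no aligner, counting tool, annotation release or treatment of reads that match several miRNAs.

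Libraries were grouped by the treatment label. Replicate numbers follow accession order and pair nothing. The main test was edgeR 4.0.16 under R 4.3.3, its quasi-likelihood test made robust, after TMM and filterByExpr, which left 177 miRNAs. P-values were adjusted by Benjamini-Hochberg and called at 0.05. Standard errors came from dividing the log2 fold change by the root of its F statistic. For correlations, 2 was the prior count of log2 CPM. Alternatives used limma 3.58.1 and DESeq2 1.42.0. For single values all 252 arrangements of the libraries were enumerated in two-sided exact permutation tests, which can give no p below 0.00794. Exact Poisson and binomial intervals came from SciPy 1.17.1. Correlations had permutation tests with 100000 resamples. The edgeR procedure was tested on simulated data. Tables and plots were made in Python 3.11.15 with NumPy 2.4.6, matplotlib 3.10.9 and pandas 2.3.3.

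The members, the 7 lists and the tests were chosen with earlier results of these data known. Named miRNAs are the members, the 5 most alike and the neighbours in level of each tested member, and up to 4 of the most abundant members of each list, with miR-144-5p beyond that number. miR-150-5p as a companion of miR-122-5p, miR-122b-5p, and miR-199a-3p beside miR-199b-3p were chosen after values were seen.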

Additional observations from a re-analysis of the deposited data

Results flagged for a closer look

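Each member, the summed shares and the ratio were checked within each group for a library far from the others, which gave 16 combinations with any spread, and 5 stood out. In control, miR-122-5p stood at 344 CPM in control 4. The other 4 each come from a group with 4 of 5 libraries at 0, where any library with a count stands out by construction, so the rate of about 1 in 20 that chance gives does not apply to them. Of these, miR-122-3p stood at 22.7 CPM in control 4, on 8 counts. In HFD plus L-NAME, miR-122-5p stood at 5.91 CPM in library 4 on 2 counts, miR-194-1-3p at 2.95 CPM in library 4 on 1 count and miR-194-2-3p at 3.51 CPM in library 3 on 1 count. These last values lie below the level that a count of 0 allows.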

How the results depend on the processing

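With 1 library left out, the log2 fold change ranged from -0.22 to 0.0035 for miR-192-5p (above 0 without control 3) and from -0.42 to -0.03 for miR-194-5p, the log2 ratio of miR-194-5p to miR-192-5p from -0.42 to 0.052 (above 0 without HFD plus L-NAME 2, and -0.18 with an exact permutation p of 0.589 without HFD plus L-NAME 2 and 4, an alternative chosen after seeing these values), the summed share from -0.0186 to -0.00766 percentage points, the difference in miR-122-5p from -90.5 to -4.62 CPM (exact permutation p 0.0159 to 0.516), and the number of miRNAs edgeR called from 0 to 1. The range of p for miR-122-5p depends mostly on which group loses a library, because control 4 dominates its difference. With read totals as library size the median over all miRNAs moved from -0.02 to -0.37, and with miR-1a-3p left out it was 0.12. There miR-192-5p was at -0.48 and 0.014 and miR-194-5p at -0.58 and -0.10. Relative to those medians miR-192-5p was at -0.11 in both and miR-194-5p at -0.21 and -0.22. Read totals as denominator gave the summed share a difference of -0.000366 percentage points (exact permutation p = 0.0397), and a total without miR-1a-3p gave -0.00780 (exact permutation p = 0.468). Scaled to read totals, the correlations turned positive, to 0.59 between both members (without control 4, by TMM, -0.13). For miR-192-5p and miR-194-5p in turn, they were 0.68 and 0.46 with miR-451a and 0.24 and 0.36 with miR-1a-3p. The adjusted permutation p of these correlations on read totals was 0.132 to 0.492. The cause was not tested. DESeq2 called 3 miRNAs and edgeR without a filter 1, none of them a member, while 28 had an unadjusted p under 0.05 by edgeR. In the fit without a filter miR-122-5p had a log2 fold change of -5.29 ± 2.12 (SE, edgeR adjusted p = 0.474), which depends on the prior count. No paired analysis was possible because the libraries share no replicate numbers in the labels.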
